A study of Mus musculus with 7 samples.

Results

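The expression of 10 telomere maintenance genes was compared between mouse embryonic stem cells (mESCs) and mouse embryonic fibroblasts (MEFs). The genes were picked by name, from the catalytic subunit of telomerase (Tert), proteins of the telomerase RNA particle (Nop10, Nhp2), shelterin (Terf1, Terf2, Tinf2, Acd, Pot1a, Pot1b) and Rif1. All 10 were found among the 55484 gene rows of the count table, and all 10 had enough counts to be among the 16580 genes tested. The mESCs are pluripotent cells derived from the early embryo, and the MEFs are connective-tissue cells cultured from later embryos. The labels give the C57/Bl6 background for both cell types and name no treatment, and there were 4 MEF and 3 mESC RNA-seq libraries. The study calls the replicates of its expression data biological and states as many for MEFs as for mESCs, which differs from the libraries in the table. The labels give neither the embryos nor the mESC lines, passages or clones behind each library, and the p-values measure the spread between these libraries. The study's sort of Thy1-positive MEFs and of Thy1-negative, Ssea1- and Epcam-positive mESCs is described for its ATAC-seq libraries, and the extraction protocol in the labels speaks of blood stem cells, so the sort of these RNA samples was not established here. The study used its expression data to rank transcription factors from motif enrichment and foot-printing by their difference in expression between mESCs and MEFs. Telomere genes were not part of that question.

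Telomeres are the repeated sequences that cap chromosome ends and shorten when cells divide without telomerase. Telomerase is made of the reverse transcriptase Tert and the template RNA Terc, and the RNA is held by the box H/ACA proteins Dkc1, Nop10, Nhp2 and Gar1, which also serve the pseudouridylation of ribosomal RNA. Shelterin coats the repeats: Terf1 and Terf2 bind the double-stranded part, Pot1a and Pot1b bind the single-stranded overhang, Acd (TPP1) holds the Pot1 proteins, and Tinf2 (TIN2) links the rest. Mouse cells have a pair of Pot1 genes where human cells have a single one. Pluripotent stem cells are known for active telomerase, while Rif1 is known in mice for the control of replication timing and the choice of double-strand break repair, besides its expression in stem cells.

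The MEF libraries held 11441278, 7312679, 9176467 and 6528643 counts and the mESC libraries 8193825, 8057985 and 7462710, and values are listed in this order throughout. A floor of 3 counts was 0.288 to 0.477 CPM (counts per 1000000 counts of a TMM-scaled library), which covers counting error only. All 10 pluripotency markers were higher in mESCs and all 10 fibroblast markers lower. The fibroblast markers summed to 158 to 183 CPM in mESCs against 23100 to 40100 CPM in MEFs. The pluripotency markers summed to 42.9 to 47.3 CPM in MEFs against 3370 to 3640 CPM in mESCs. Of 8 blood markers, 3 could be tested, and of these Laptm5 was higher in mESCs, Cd53 lower and Spi1 neither. The blood markers summed to 2.9 to 15.7 CPM in MEFs and 54.7 to 63.7 CPM in mESCs. Most of the mESC sum was Laptm5 alone, with 52.6, 62.4 and 60.4 CPM. In MEFs Laptm5 held 6, 1, 60 and 26 counts, Spi1 3, 0, 19 and 13, and Cd53 27, 7, 21 and 30. Laptm5 and Spi1 were thus highest in the MEF libraries of 9176467 and 6528643 counts, while Cd53 did not follow this. Ptprc, which defines blood cells, held 1, 6, 17 and 6 counts in MEFs and 0, 1 and 0 in mESCs. By the pluripotency and fibroblast markers both cell types matched their labels. The MEF libraries of 9176467 and 6528643 counts stood apart from the other MEF libraries by 756 and 556 counts of the Y-linked genes Ddx3y, Eif2s3y and Kdm5d, against 22 and 4. In mESCs these genes held 16, 16 and 304 counts. Uty, also Y-linked, did not follow this split. It held 142, 80, 83 and 102 counts in MEFs and 76, 69 and 137 in mESCs.

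Of the 10 genes, 7 were higher in mESCs (Rif1, Tert, Terf1, Nhp2, Pot1b, Pot1a and Nop10), 0 were lower and 3 did not pass the test (Tinf2, Terf2 and Acd; threshold: adjusted p of 0.05 in the edgeR quasi-likelihood fit, Benjamini-Hochberg over all genes tested). Over all genes tested, 22.8% were higher in mESCs, 25.0% lower and 47.9% either. The levels of MEFs and mESCs did not overlap for 9 of the 10 genes, with 8 higher and 1 lower in mESCs, where over all genes tested this held for 52.1% (25.9% higher and 26.2% lower). The median log2 fold change was 1.24 for the 10 genes and 0.04 for all genes. The genes were chosen with earlier results of these data known, so these counts are a description. In bulk RNA, fewer cells of a type and less RNA per cell cannot be told apart. The largest rise was that of Rif1 at 8.05-fold and the smallest that of Nop10 at 2.01-fold.

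**Figure D1:**
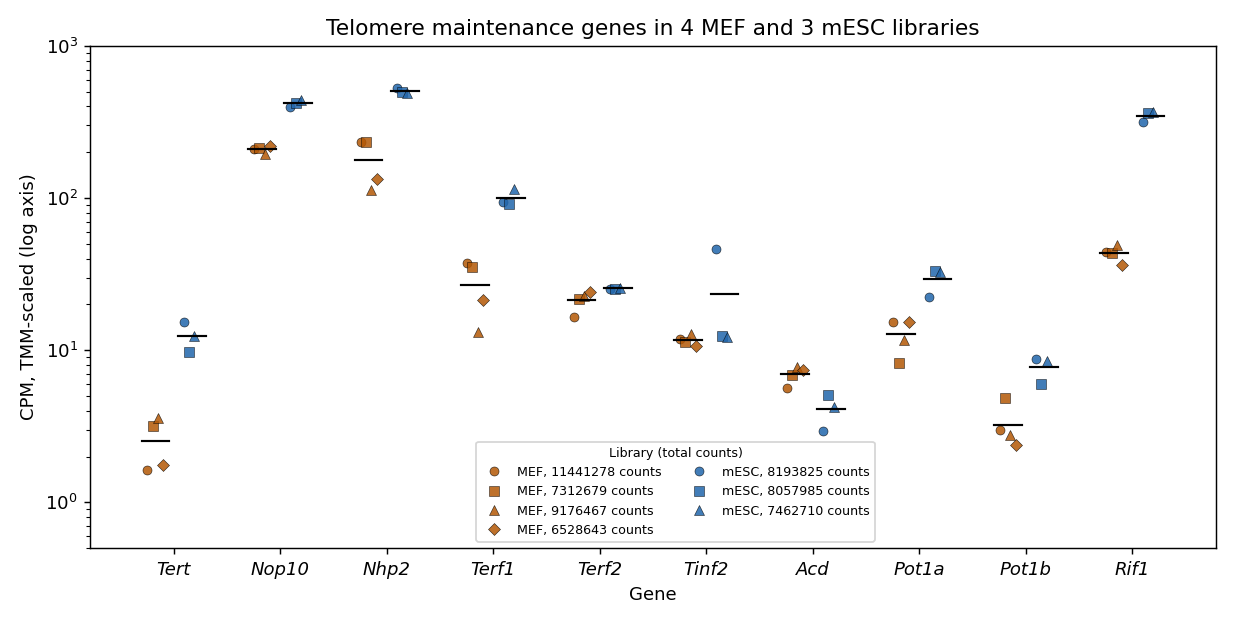
Level of each gene in every library, in CPM scaled by the TMM method, on a log axis. Each point is a library (MEFs left and orange, mESCs right and blue, marker shape by library) and the bars are means. The mESC points lie above all MEF points of the same gene except for Tinf2, where a single mESC library lies far above the others, and Acd, where they lie below.

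All 3 telomerase genes among the 10 rose. Tert (chromosome 13 of GRCm38, 73626911 to 73649843, plus strand), the reverse transcriptase, held 17, 21, 30 and 11 counts in MEFs and 141, 86 and 105 in mESCs. In CPM these were 1.63, 3.20, 3.60 and 1.75 in MEFs and 15.3, 9.77 and 12.4 in mESCs. Tert was thus above the floor in every MEF library, but the floor covers counting error only. The pluripotency markers also held counts in MEFs, and the source of the Tert counts there was not tested. The lowest mESC level of Tert was above its highest MEF level. Its mean rose from 2.54 ± 1.0 CPM (SD, n = 4) to 12.5 ± 2.76 CPM (SD, n = 3), a log2 fold change of 2.29 (SE 0.381, edgeR adjusted p = 5.77e-04). Of all genes tested, 7.87% had a higher log2 fold change than Tert. The 50-base sequences of its transcripts were nearly unique, with 0.242% also found in other genes.

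Nop10 (chromosome 2, 112261926 to 112263269, plus strand), the smallest of the box H/ACA core proteins, held 211, 212, 194 and 220 CPM in MEFs and 399, 421 and 439 CPM in mESCs. It varied least among MEFs of the 10 genes, with a coefficient of variation of 5.18% there and 4.78% in mESCs. Its log2 fold change was 1.01 (SE 0.118, edgeR adjusted p = 5.08e-05), the smallest rise of the genes that passed, with the smallest standard error (SE) of the 10. Nhp2 (chromosome 11, 51619735 to 51623714, plus strand), another box H/ACA protein, held 233, 233, 112 and 133 CPM in MEFs and 528, 497 and 489 CPM in mESCs. The MEF libraries thus fell into a higher and a lower pair for Nhp2, while the mESC libraries differed by at most 1.08 times. Its log2 fold change was 1.51 (SE 0.247, edgeR adjusted p = 5.30e-04).

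To show the DNA in front of genes that rose, the 250 bases before the start of Tert, Nop10, Pot1a and Pot1b are given 5′ to 3′ on the strand of the gene (RefSeq, GRCm38.p6), with any match to the GC box GGGCGG or its reverse complement in capitals. The windows are chr13:73626661-73626910 (plus strand) for Tert, chr2:112261676-112261925 (plus strand) for Nop10, chr6:25809219-25809468 (minus strand) for Pot1a and chr17:55712625-55712874 (minus strand) for Pot1b, the first of the listed windows of that gene.
Tert: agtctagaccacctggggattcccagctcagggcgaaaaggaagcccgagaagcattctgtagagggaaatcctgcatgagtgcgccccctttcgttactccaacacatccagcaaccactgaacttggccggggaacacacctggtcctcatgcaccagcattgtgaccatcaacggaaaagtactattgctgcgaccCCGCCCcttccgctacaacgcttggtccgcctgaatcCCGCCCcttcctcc
Nop10: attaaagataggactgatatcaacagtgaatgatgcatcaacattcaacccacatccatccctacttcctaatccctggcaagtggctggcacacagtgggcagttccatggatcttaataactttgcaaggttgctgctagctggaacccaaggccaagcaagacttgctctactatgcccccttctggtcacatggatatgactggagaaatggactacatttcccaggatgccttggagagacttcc
Pot1a: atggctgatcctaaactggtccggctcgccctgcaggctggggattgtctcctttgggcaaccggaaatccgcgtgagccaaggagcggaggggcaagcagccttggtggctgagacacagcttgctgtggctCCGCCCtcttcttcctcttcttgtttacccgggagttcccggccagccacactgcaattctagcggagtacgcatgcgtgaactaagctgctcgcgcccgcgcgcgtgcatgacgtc
Pot1b: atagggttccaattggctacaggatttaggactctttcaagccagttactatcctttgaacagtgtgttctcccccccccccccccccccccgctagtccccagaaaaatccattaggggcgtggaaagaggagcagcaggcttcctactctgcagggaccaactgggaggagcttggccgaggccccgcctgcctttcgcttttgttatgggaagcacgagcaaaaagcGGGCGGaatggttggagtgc
The window of Tert held 2 matches, which began 51 and 14 bases before the start, and those of Pot1a and Pot1b held 1 each, 117 and 20 bases before the start. The window of Nop10 held none. Windows were found for 8 of the 10 genes (all but Terf1 and Rif1), and 4 of these held GGGCGG, where 32.7% of all 32851 windows did. Nhp2 was the other gene with this motif, with 3 matches. The E-box CACGTG was in the window of 0 of the 8 genes and in 6.02% of all windows, and the octamer ATGCAAAT in 0 and in 1.6%. The ETS core CCGGAAG was in 2, those of Nhp2 and Tinf2, and in 6.91% of all windows. Both strands were searched, and a match or its absence only describes these letters. The GC box was in the windows of Tert, Nhp2, Pot1a and Pot1b, and not in those of Nop10, Terf2, Tinf2 and Acd. With no window for Terf1 or Rif1, a link of the motif to the change in level was not tested.

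The other telomerase genes were read from a list of 16 that includes Tert, Nop10 and Nhp2. Of the 16, 10 were higher in mESCs, 0 lower, 5 did not pass and 1 had too few counts to be tested. Set beside this and the other lists, 22.8% of all genes tested were higher in mESCs and 25.0% lower. Dkc1, the pseudouridine synthase of the box H/ACA particle, rose from 119 ± 31.0 CPM (SD, n = 4) to 514 ± 69.6 CPM (SD, n = 3), a log2 fold change of 2.11 (edgeR adjusted p = 1.24e-05). Gar1, the last of the core proteins, rose by a log2 fold change of 0.95, so that 4 of 4 box H/ACA core proteins were higher. Naf1, which escorts the particle during its assembly and is later exchanged for Gar1, rose by 2.45 on the log2 scale, from 4.87 ± 3.69 CPM (SD, n = 4) to 26.3 ± 1.99 CPM (SD, n = 3). Wrap53, which brings telomerase to Cajal bodies, held means of 6.88 CPM in MEFs and 10.8 CPM in mESCs and did not pass (edgeR adjusted p = 0.0919). Terc, the template RNA, held 0, 0, 1 and 0 counts in MEFs and 2, 1 and 6 in mESCs. Libraries were primed on poly(A) tails and Terc is not a typical polyadenylated RNA, so these counts give no level of it. As a comparison within the nucleolus, 3 of 4 core proteins of the box C/D particles were higher too (Snu13, Nop58 and Nop56, with log2 fold changes of 1.10, 0.80 and 0.80).

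Of the 7 shelterin genes, 6 had a positive log2 fold change, and the median was 1.02. Terf1, which binds double-stranded repeats, Pot1a and Pot1b rose, and 4 of the 7 shelterin genes did not pass. Over all genes tested, 47.9% passed in either direction. Passing or not passing does not test a difference between genes. Terf1 (chromosome 1, 15805646 to 15844052, plus strand) held 37.3, 35.5, 13.2 and 21.3 CPM in MEFs and 94.0, 91.8 and 114 CPM in mESCs. The MEF libraries of 9176467 and 6528643 counts were the lowest, and the highest MEF level was 2.83 times the lowest, yet all MEF levels lay below the mESC levels. Its log2 fold change was 1.89 (SE 0.310, edgeR adjusted p = 5.24e-04). Other genes share 2.97% of its 50-base sequences.

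Terf2 (chromosome 8, 107069400 to 107096547, minus strand) is the other double-strand binding protein, known to guard chromosome ends from fusion in somatic cells. It held 16.6, 21.8, 22.9 and 24.0 CPM in MEFs and 25.4, 25.2 and 25.8 CPM in mESCs. The mESC libraries differed by at most 1.02 times and lay just above the highest MEF library. The log2 fold change was 0.26, with a 95% interval of -0.18 to 0.70 (edgeR adjusted p = 0.320). The call depended on the scaling, as library size alone gave a log2 fold change of 0.54 (edgeR adjusted p = 0.0497). Terf2ip (RAP1), which rides on Terf2 and was not one of the 10 genes, held means of 18.6 ± 6.01 CPM (SD, n = 4) and 21.2 ± 1.47 CPM (SD, n = 3), and did not pass (edgeR adjusted p = 0.603).

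Pot1a (chromosome 6, 25743737 to 25809246, minus strand), which binds the overhang and restrains damage signalling there, held 15.4, 8.23, 11.7 and 15.4 CPM in MEFs and 22.5, 33.3 and 32.9 CPM in mESCs, a log2 fold change of 1.22 (SE 0.269, edgeR adjusted p = 0.00347). Pot1b (chromosome 17, 55651951 to 55712628, minus strand), known to limit trimming of the C-rich strand, held 31, 32, 23 and 15 counts in MEFs and 81, 53 and 72 in mESCs. In CPM its MEF levels were 2.97, 4.88, 2.76 and 2.39 and its mESC levels 8.78, 6.02 and 8.49, a log2 fold change of 1.26 (SE 0.373, edgeR adjusted p = 0.0172). Neither gene's levels overlapped between the cell types. Of the 7 genes that passed, Pot1b did so in the fewest alternatives. Without the mESC library of 8193825 counts its edgeR adjusted p was 0.0634, and without that of 7462710 counts 0.0598. Of their 50-base sequences, 0.186% of Pot1a and 1.36% of Pot1b also occur in other genes.

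Tinf2 (chromosome 14, 55674689 to 55681820, minus strand), the link of shelterin, rested on a single library. It held 123, 74, 107 and 67 counts in MEFs and 426, 110 and 103 in mESCs. In CPM the MEF levels were 11.8, 11.3, 12.8 and 10.7 and the mESC levels 46.2, 12.5 and 12.2. The mESC library of 8193825 counts was thus 3.8 times as high as the lowest mESC library, while the other mESC libraries lay within the MEF range. The log2 fold change was 1.02 (SE 0.434, edgeR adjusted p = 0.0762), and 0.08 without that library (edgeR adjusted p = 0.852). The fit called Tinf2 higher without the mESC library of 8057985 counts (edgeR adjusted p = 0.0314) and without that of 7462710 counts (edgeR adjusted p = 0.0289). Its exons share 1540 of 4938 bases with exons of Gmpr2 on the opposite strand, and the strand setting of the authors' counting is not given in the sources used here. Gmpr2 held 24, 11, 11 and 2 counts in MEFs and 57, 84 and 17 in mESCs and was itself called higher in mESCs, with a log2 fold change of 2.03 (edgeR adjusted p = 0.0231). Its part in the counts of Tinf2 was not tested.

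Acd (chromosome 8, 105695860 to 105701102, minus strand), the partner of the Pot1 proteins and the recruiter of telomerase, was the only one of the 10 genes with a negative log2 fold change. It held 59, 45, 65 and 47 counts in MEFs and 27, 45 and 36 in mESCs. In CPM these were 5.66, 6.86, 7.79 and 7.47 in MEFs and 2.93, 5.11 and 4.25 in mESCs, and the groups did not overlap. Its log2 fold change was -0.76 with a 95% interval of -1.52 to 0.01 (edgeR adjusted p = 0.0950), so it did not pass. Exons of Acd share 1208 of 3625 bases with Carmil2 on the opposite strand, which held 2 to 12 counts in MEFs and 9 to 17 in mESCs.

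**Figure D2:**
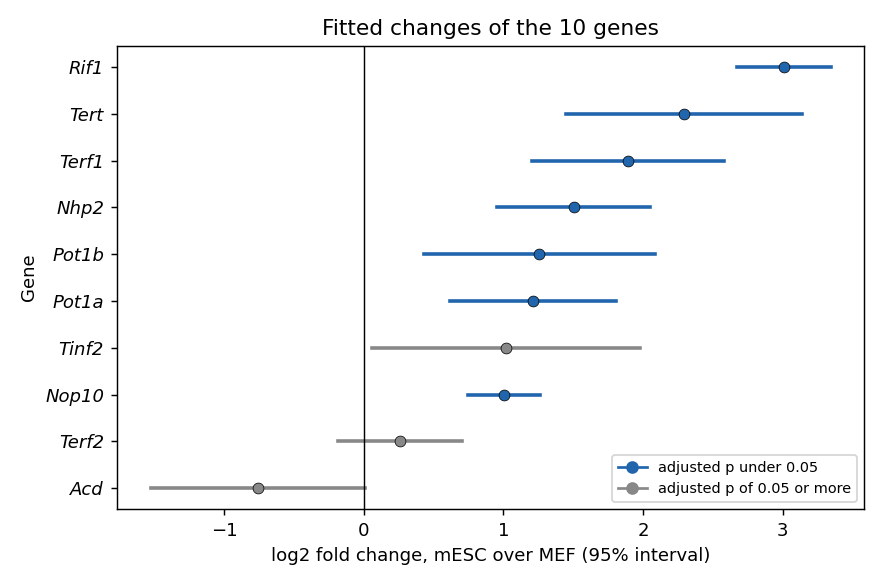
Fitted log2 fold change of each gene, mESC over MEF, with its 95% interval (edgeR, 4 MEF and 3 mESC libraries), sorted by size. Blue genes passed an adjusted p of 0.05; from Rif1 at 3.01 down to Nop10 at 1.01 all but Tinf2 passed, and the intervals of Terf2 and Acd include 0.

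Rif1 (chromosome 2, 52072832 to 52122383, plus strand) showed the largest change. It held 462, 285, 409 and 229 counts in MEFs and 2919, 3191 and 3117 in mESCs, or 44.3, 43.5, 49.0 and 36.4 CPM against 316, 363 and 368 CPM. The gap between the cell types was far wider than the spread within either. Its log2 fold change was 3.01 (SE 0.151, 95% interval 2.67 to 3.34, edgeR adjusted p = 1.30e-07). Of all genes tested, 5.29% had a higher log2 fold change. None of its 50-base sequences occurs in another gene. The genes that act with Rif1 in repair choice and replication were read from a list of 10 that includes it. Of these, 3 were higher, 0 lower and 7 did not pass, where 22.8% of all genes tested were higher. Mad2l2 (REV7), a shieldin subunit, rose by a log2 fold change of 1.18 (edgeR adjusted p = 9.27e-04), and Paxip1 (PTIP), which also acts with 53BP1, by 0.89. The other shieldin genes, Shld1, Shld2 and Shld3, had log2 fold changes of 1.03, 0.83 and 1.02 and did not pass (edgeR adjusted p = 0.13, 0.287 and 0.0781). Trp53bp1, which encodes 53BP1, held means of 10.5 CPM in MEFs and 9.74 CPM in mESCs and did not pass, like the Rif1-bound phosphatase subunits Ppp1ca, Ppp1cb and Ppp1cc.

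Ratios of counts within a library were compared for 4 pairs of genes, because such a ratio does not depend on the scaling between libraries. Levels of different genes were not compared, since capture can differ between genes, and only the change of a ratio between cell types was read. The log2 ratio of Terf1 to Terf2 was 1.17, 0.70, -0.79 and -0.17 in MEFs and 1.89, 1.86 and 2.14 in mESCs. It was higher in every mESC library, by 1.74 on the log2 scale (exact permutation test, two-sided, p = 0.0571, adjusted over the 4 pairs 0.114). The smallest p that 4 against 3 libraries can give is 0.0286. The log2 ratio of Tert to Nop10 was -6.97, -6.02, -5.73 and -6.91 in MEFs and -4.70, -5.42 and -5.14 in mESCs, with a difference of 1.32 (exact permutation test, two-sided, p = 0.0571, adjusted 0.114). The log2 ratio of Nop10 to Nhp2 was -0.14, -0.14, 0.79 and 0.73 in MEFs and -0.40, -0.24 and -0.15 in mESCs (exact permutation test, two-sided, p = 0.143, adjusted 0.191). For these 3 pairs MEFs and mESCs did not overlap, though for Nop10 to Nhp2 the gap was only from -0.15 to -0.14. None passed this test, which has little power with so few libraries. A single pair at the smallest possible p would not have passed after adjustment over the 4 pairs. The log2 ratio of Pot1a to Pot1b was 2.36, 0.75, 2.07 and 2.65 in MEFs and 1.35, 2.46 and 1.95 in mESCs. Its means of 1.96 ± 0.84 (SD, n = 4) and 1.92 ± 0.55 (SD, n = 3) differed by less than the spread in either cell type (exact permutation test, two-sided, p = 0.914, adjusted 0.914).

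**Figure D3:**
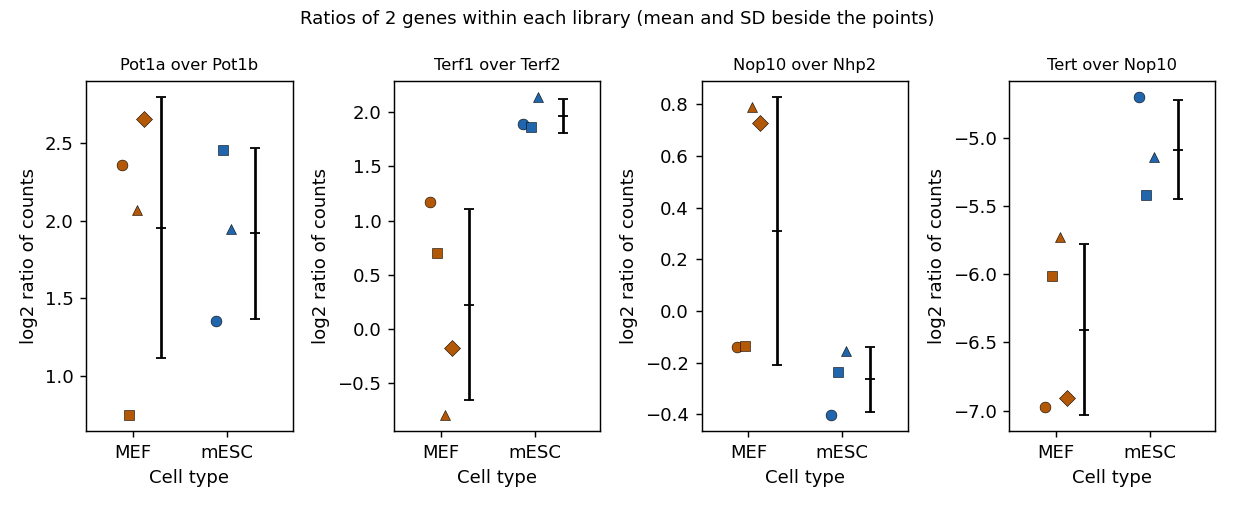
log2 ratio of the counts of 2 genes in each library, with the mean and SD beside the points (MEFs orange, n = 4; mESCs blue, n = 3; marker shapes as in the plot of levels). Terf1 over Terf2 lies between -0.79 and 1.17 in MEFs and between 1.86 and 2.14 in mESCs, and Pot1a over Pot1b overlaps.

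The genes were also compared between the MEF libraries with few and with many Y-linked counts, meaning those of Ddx3y, Eif2s3y and Kdm5d without Uty. Pairs of MEF libraries split in this way did not overlap for 5 of the 10 genes (Nhp2, Terf1, Terf2, Acd and Pot1b), a share near the 44.2% of all genes tested. Mean CPM in the MEF libraries with few Y-linked counts was 1.90 times that in those with many for Nhp2 and 2.11 times for Terf1, while Rif1 (1.03 times) and Nop10 (1.02 times) differed little. What the pairs share besides these genes is not in the labels, and its part in the result was not tested. Against the pair with few Y-linked counts alone, the log2 fold change of Terf1 was 1.42 and that of Nhp2 1.08. Against the other pair they were 2.51 and 2.01, and all 4 passed the threshold of 0.05. Both fits used the same mESC libraries, and the split was chosen after values were seen, so these passes are not independent. The log2 fold change of Pot1b was 0.97 against the first pair and did not pass (edgeR adjusted p = 0.104), and was 1.56 against the second (edgeR adjusted p = 0.0173).

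Other telomere genes were read from lists chosen by function, where 22.8% of all genes tested were higher in mESCs and 25.0% lower. The CST complex, which recruits DNA polymerase alpha-primase to fill in the C-rich strand, was listed with that polymerase. Of these 7 genes 4 were higher and 0 lower: Pola1, Pola2 and Prim1 of the polymerase, and Ctc1 of CST with a log2 fold change of 0.94 (edgeR adjusted p = 0.00961). The other CST genes, Stn1 and Ten1, had log2 fold changes of 0.07 and -0.33 and did not pass. Of 20 factors for processing and replicating telomeres, 11 were higher and 0 lower. Dna2, a nuclease and helicase, rose from 4.4 ± 2.52 CPM (SD, n = 4) to 28.1 ± 6.68 CPM (SD, n = 3), a log2 fold change of 2.64 (edgeR adjusted p = 4.18e-04). Terb2 and Majin, which tie telomeres to the nuclear envelope in meiosis, are counted among the 11, but met the filter on low counts only through the mESC libraries, where they were high. Terb2 held 0, 0, 0 and 1 counts in MEFs and 15, 10 and 40 in mESCs, and Majin 3, 2, 3 and 1 against 24, 10 and 14. The Zscan4 genes, known for telomere lengthening in rare mESCs, were too low to be tested. Zscan4e and Zscan4f held 0 counts in every library, Zscan4c held 6 counts in a single mESC library, Zscan4a and Zscan4b held at most 2 counts in a library, and Zscan4d held 9 counts in a single MEF library and 1, 2 and 4 in mESCs.

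Genes of DNA replication and division moved with these lists. Of 12 proliferation genes 9 were higher in mESCs and 0 lower, where 22.8% of all genes tested were higher and 25.0% lower. The 12 genes had a median log2 fold change of 1.0. Their summed level was 1410 to 1750 CPM in MEFs and 3020 to 3230 CPM in mESCs. Ccna2, Cdk1 and Mki67 did not pass. Whether cell division has a part in the higher telomere genes was not tested.

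**Figure D4:**
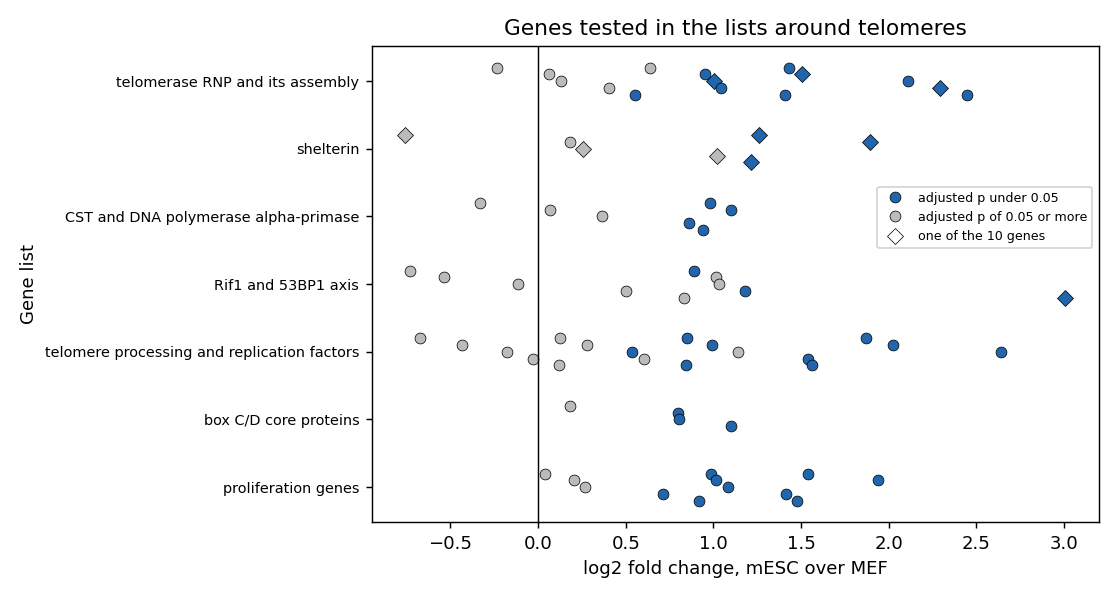
Fitted log2 fold change of each tested gene of 7 lists (mESC over MEF, rows are lists, diamonds are among the 10 genes, blue passed an adjusted p of 0.05). Genes with at most 3 counts in every MEF library are left out. No gene was called lower, and in shelterin 3 of 7 were higher.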

How the data were processed

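RNA was measured in 4 MEF libraries and 3 mESC libraries, made with poly(A) priming and a 3-prime bias, with molecular identifiers, so CPM values were not divided by transcript length. After demultiplexing (Sabre) and trimming (Cutadapt), the authors used STAR to align reads to mm10 (GRCm38), Je to collapse them by molecular identifier, and featureCounts to assign those with a unique position to exons. The deposited values are raw counts per gene without normalization. The annotation release and strand setting are not given in the sources used here. Column names give the cell type but not the sample, so a library is called here by its total count. All columns of a cell type carry the same number after its name. The columns thus do not show whether the libraries came from separate cultures. Of the symbols, 26 had the form of dates and held 0.25% of the counts; they stayed in the totals and are not named.

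Counts were tested with edgeR 4.0.16 (limma 3.58.1, R 4.3.3): a quasi-likelihood fit of cell type on the 7 libraries, after filterByExpr and TMM scaling, with no covariate. The threshold was 0.05 after Benjamini-Hochberg adjustment. Against library size alone, TMM moved log2 fold changes by -0.28. Standard errors were taken as the log2 fold change divided by the root of F. log2CPM values used a prior count of 2, and ratios of counts had 0.5 added to each count. No pair of libraries agreed within sampling noise (chi-square per degree of freedom of 15.6 to 31.1). The code was tested on simulated data. Alternatives were DESeq2 1.42.0, other scalings and filters, a test against a fold change of 2, and each library left out in turn. The genes and lists were chosen with earlier results of these data known. Named in the text are the 10 genes, 7 fixed genes or families, and at most the 3 largest changes per list and direction. Gmpr2, Carmil2, Prim1, Trp53bp1, Stn1, Ten1, the Ppp1c genes, Ccna2, Cdk1, Mki67, the blood markers and the split of the MEF libraries were chosen after their values were seen. Uty and the Shld genes were also named after their values were seen. Positions, overlapping exons and shared sequences are from GENCODE M21 on GRCm38.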

Additional observations from a re-analysis of the deposited data

Results flagged for a closer look

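Of 16 genes examined (the 10 genes, Terf2ip, Dkc1, Gar1, Terc, Wrap53 and Ctc1), 1 had a MEF library far from the rest, where chance gives about 0.8 (1 in 20). It was Terc, with 0.120 CPM in the MEF library of 9176467 counts, from 1 count against 0 in the other 3, which is under the floor of 3 counts. The mESC library that stood apart for Tinf2 was not tested in this way, because the group holds 3 libraries.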

How the results depend on the processing

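No paired analysis was possible because the count columns do not carry the numbers of the samples. Of the 10 genes, Rif1, Tert, Terf1, Nhp2, Nop10 and Pot1a stayed higher in mESCs at an adjusted p under 0.05 in 12 of 12 alternatives other than the test against a fold change of 2, and Pot1b in 10 of 12. Acd passed in 0 of 12, with an unadjusted p of 0.0517 in the fit reported (edgeR) and adjusted p-values of 0.0826 to 0.277. No gene among the 10 changed its direction.

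Testing against a fold change of 2, a stricter test by construction, left 1714 genes higher and 2277 lower in mESCs, and 4 of the 10 genes. Nop10 (log2 fold change 1.005), Pot1a (1.215) and Pot1b (1.258) no longer passed it. It left 4 telomerase genes, 1 shelterin gene, 0 genes of CST and polymerase alpha-primase, 1 of the Rif1 list, 6 of the processing list, 2 box H/ACA and 0 box C/D proteins. With library size alone, 60.8% of calls were higher in place of 47.7%, the median change over all genes was 0.32 (log2), 5 shelterin genes were higher, and Terf2 (0.538) and Tinf2 (1.307) passed. Tinf2 also passed with DESeq2 (1.036) and with no filter beyond 1 count (0.981). Without that filter 1 gene of the Rif1 list and 1 of the processing list were lower in mESCs; the cause was not tested. With library size alone the mean log2CPM was 7.589 for Nop10, 3.449 for Tinf2 in MEFs, and 8.874 for Nop10, 9.14 for Nhp2, 4.844 for Terf2 and 8.605 for Rif1 in mESCs.

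Leaving out one library in turn gave log2 fold changes of 0.0766 to 1.328 for Tinf2 and 1.135 to 1.504 for Pot1b. It gave 7 (without the mESC library of 8193825 counts) to 11 genes of the processing list higher and 0 to 1 lower, and 0 to 1 of the Rif1 list lower. The log2 ratio of Pot1a to Pot1b, which was -0.04 with all libraries, ranged from -0.4403 to 0.2451, and turned its sign without any one of the MEF libraries other than that of 7312679 counts, or without the mESC library of 8193825 counts. With only the MEF libraries with few Y-linked counts, Pot1b had 0.968. Terc, the Zscan4 genes, Terb2 and Majin had too few counts in MEFs for a level there to be given, and the part of depth in this was not tested.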
